A study of Mus musculus with 6 samples.

Results

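Chemokine receptors read the gradients that move leukocytes through tissue, and a smaller group of atypical receptors binds chemokines without passing the signal on. The 9 receptor genes described here were taken by symbol from the 54532 genes of the count table. They comprise 5 signalling receptors (Ccr1, Ccr2, Ccr3, Cx3cr1 and Cxcr4), 3 atypical or decoy receptors (Ackr2, Ackr3 and Ackr4) and Ccrl2, which holds the chemoattractant chemerin at the cell surface and is treated apart. RNA-seq libraries were made from newborn mouse epidermis: 3 carry the genotype label Paxbp1 knockout and 3 the label Wildtype. Age, tissue and Dispase II separation from the dermis were shared by both groups. The labels name neither the promoter or Cre behind the knockout nor the deleted exons, nor whether each library came from 1 animal, and the p-values therefore speak of the spread among these 6 libraries, which may be technical.

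Signalling receptors couple to inhibitory G proteins, whose released beta-gamma subunits activate phosphoinositide 3-kinase gamma and the Rac activators that drive migration. Decoy receptors bind beta-arrestins, internalise and carry bound chemokine to the lysosome, and so set how much ligand remains free. In skin, Ackr2 is known for clearing inflammatory CC chemokines, Ackr3 shares the ligand Cxcl12 with Cxcr4, and Ackr4, which keratinocytes express, takes up the dendritic cell attractants Ccl19, Ccl21 and Ccl25.

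Library totals ran from 16315317 to 17816327 counts. Paxbp1 itself averaged 86.1 ± 20.6 CPM over the wild type libraries and 92.5 ± 36.2 over those labelled knockout (SD, n = 3; edgeR adjusted p = 0.783), so the gene total does not check the labels, and directions below are those of the libraries labelled knockout. CPM are counts scaled to the library total with TMM factors. Calls came from edgeR's quasi-likelihood test, with a threshold of 0.05 after Benjamini-Hochberg adjustment across the 16471 genes that passed a filter on low counts. The keratinocyte markers that define epidermis were present in all 6 libraries, with basal markers summing to 19280 to 21297 CPM in the wild type and 1887 to 4899 CPM in the knockout.

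Among the receptors, 4 of 5 signalling genes and Ccrl2 were higher in the libraries labelled knockout, and all 3 decoy genes were lower. The fifth signalling gene, Cx3cr1, was lower. Over all genes tested 53.8% were called, 28.7% higher and 25.1% lower. For all 9 receptors the 3 libraries of one group did not overlap with the 3 of the other, as was the case for 62.3% of all genes tested (31.9% with the knockout higher and 30.4% with it lower). All 9 passed the filter on low counts. Ccr3 and Ccrl2 passed it only through the knockout libraries and Ackr2 and Ackr4 only through the wild type libraries, so these 4 had to differ, and the counts of calls are descriptions. In bulk tissue, more cells of a type and more RNA per cell cannot be told apart.

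**Figure D1:**
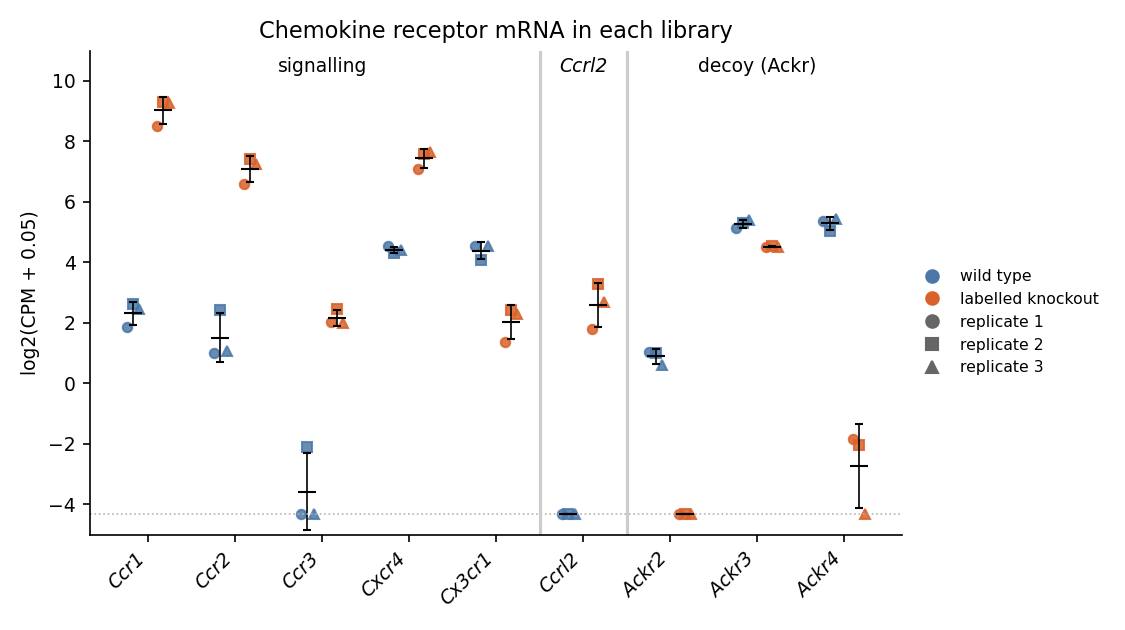
Level of the 9 receptor genes as log2(CPM + 0.05) in each library, with wild type in blue and labelled knockout in orange, symbols for replicates, and bars for mean ± SD of 3 libraries. The dotted line marks 0 counts: Ccrl2 lies on it in the wild type and Ackr2 in the knockout, and the groups do not overlap for any of the 9 genes.

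Ccr1, a receptor of monocytes, macrophages and neutrophils for Ccl3, Ccl6, Ccl7 and Ccl9, had the highest knockout FPKM of the 9. Wild type replicates 1 to 3 stood at 3.60, 6.05 and 5.46 CPM, and knockout replicates 1 to 3 at 367, 634 and 616 CPM. Every knockout library lay far above the wild type libraries, and knockout replicate 1 was the lowest of its group. The log2 fold change was 6.74 ± 0.37 (SE; edgeR adjusted p = 2.47e-07).

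Ccr2 brings inflammatory monocytes out of the blood in response to Ccl2, Ccl7 and Ccl12. Its level was 1.96, 5.38 and 2.07 CPM in the wild type and 96.0, 172 and 152 CPM in the knockout. Wild type replicate 2 was the highest of its group and still lay well below every knockout library (log2 fold change 5.49 ± 0.44, edgeR adjusted p = 2.20e-06).

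Ccr3 is the eotaxin receptor of eosinophils and some other granulocytes. Only 3 counts were found over the wild type libraries, all of them in replicate 2, against 72, 83 and 63 in the knockout. The ratio of the groups was 79.2, with an exact 95% counting interval of 26.7 to 387 (edgeR adjusted p = 7.53e-05). Such intervals cover counting error only. Its knockout level of 4.47 ± 0.83 CPM corresponds to 1.36 ± 0.24 FPKM, beside 189 FPKM for Ccr1 and 20.6 for Ccr2 in the same libraries.

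Cxcr4 is carried by most leukocytes and by many tissue cells, and follows Cxcl12. Unlike the CC receptors above it was already well measured in the wild type, at 23.1, 19.8 and 21.1 CPM, and stood at 136, 193 and 200 CPM in the knockout. Its log2 fold change of 3.05 ± 0.23 (edgeR adjusted p = 1.75e-06) was smaller than those of the CC receptors. The wild type libraries were tight around their mean (21.3 ± 1.65 CPM), and the knockout libraries spread more (176 ± 35.2 CPM).

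Cx3cr1, the receptor of membrane-bound fractalkine (Cx3cl1) on resident macrophages and some monocytes and T cells, went the other way. It stood at 23.3, 16.9 and 23.3 CPM in the wild type and at 2.55, 5.29 and 4.89 CPM in the knockout. All knockout libraries were lower than all wild type libraries, with a mean of 20.0% of the wild type level (log2 fold change -2.32 ± 0.32, edgeR adjusted p = 1.05e-04). This gene spans other genes on both strands, among them Csrnp1, which went from 1079 to 3886 counts over the libraries of a group, and Wdr48, from 2328 to 1926. The strand setting of the counting is not given in the sources used here.

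Ccrl2 binds chemerin without signalling and presents it to cells that carry Cmklr1. It had no count in any wild type library and 61, 148 and 103 counts in the knockout. Against a floor of 3 counts over the wild type group, it was at least 113-fold higher (edgeR adjusted p = 3.44e-05). The knockout level was 6.50 ± 3.11 CPM, with replicate 1 again the lowest.

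Ackr2, the scavenger of inflammatory CC chemokines, had the lowest FPKM of the 3 decoys in both groups. Counts were 37, 32 and 28 in the wild type and 0 in every knockout library, which makes it at least 29.7-fold lower against a floor of 3 counts over the knockout group (edgeR adjusted p = 1.75e-04). A count of 0 allows up to 0.170, 0.196 and 0.186 CPM in knockout replicates 1 to 3, against 1.82 ± 0.29 CPM in the wild type.

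Ackr4 was nearly absent from the knockout libraries. Wild type libraries held 763, 540 and 821 counts (41.6, 33.0 and 43.6 CPM) and knockout libraries 4, 3 and 0, which is 0.357% of the wild type mean on the CPM scale. The log2 fold change was -8.04 ± 0.48 (edgeR adjusted p = 3.41e-07). Acad11, on the opposite strand, spans the whole of Ackr4 and went from 2672 to 784 counts, so it kept many counts in the libraries where Ackr4 had 7.

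Ackr3, which scavenges Cxcl12 and Cxcl11, changed least of the 9 in these data. It stood at 35.2, 39.6 and 42.1 CPM in the wild type and at 22.7, 23.4 and 22.7 CPM in the knockout, where the libraries were almost equal. The knockout mean was 58.8% of the wild type mean (log2 fold change -0.77 ± 0.19, edgeR adjusted p = 0.00625). Leaving out wild type replicate 3 gave the largest adjusted p among its alternatives, 0.0429.

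The order of the receptors changed between the groups. Levels of different genes are compared here on FPKM, which divides by gene length. In the wild type, Cxcr4 (11.5 ± 0.71 FPKM) and Ackr3 (11.4 ± 1.16) led and their libraries overlapped, followed without overlap by Ackr4 (7.14 ± 0.97), Cx3cr1 (4.58 ± 0.76) and Ccr1 (1.74 ± 0.46). Ackr2 (0.568 ± 0.088) and Ccr2 (0.455 ± 0.287) overlapped below them, and Ccr3 was at 0 FPKM in 2 of 3 libraries. In the knockout, Ccr1 (189 ± 53.0 FPKM) led, then Cxcr4 (96.9 ± 19.8), Ccr2 (20.6 ± 5.78) and Ackr3 (6.81 ± 0.10), with no overlap between these neighbours. Ccrl2 (2.49 ± 1.18) and Ccr3 (1.36 ± 0.24) overlapped next, above Cx3cr1 (0.937 ± 0.329).

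The signalling and decoy receptors of this set were near balance in the wild type and far from it in the knockout. Other chemokine receptors lie outside these sums, such as Ccr4 at 5.43 ± 0.55 FPKM in the wild type and Cxcr2 at 88.1 ± 39.3 FPKM in the knockout. Of the summed FPKM of the 9 receptors, the 3 decoys held 49.2%, 51.2% and 52.6% in the wild type libraries, in replicate order, and 2.99%, 1.90% and 1.87% in those labelled knockout. The summed decoy level went from 19.1 ± 1.44 to 6.83 ± 0.10 FPKM, while the summed signalling level went from 18.3 ± 0.69 to 309 ± 78.6 FPKM. Since the members were chosen with these results known, the sums are given without a test.

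**Figure D2:**
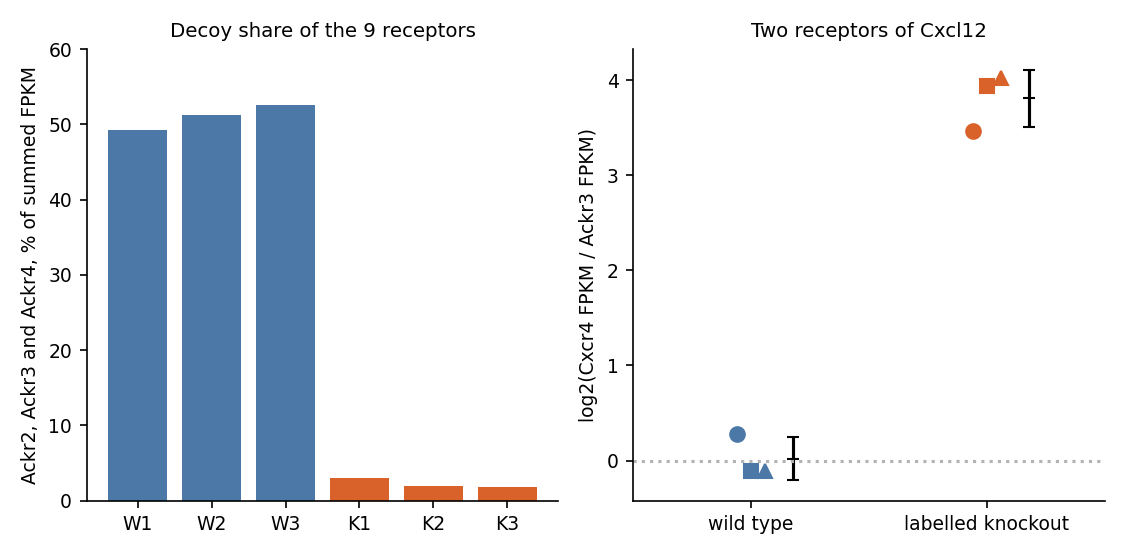
Left, share of the summed FPKM of the 9 receptors held by Ackr2, Ackr3 and Ackr4 in each library (W, wild type; K, labelled knockout). Right, log2 ratio of Cxcr4 to Ackr3 FPKM per library with mean ± SD of 3 libraries. The share lies between 49.2% and 52.6% in the wild type and at or below 2.99% in the knockout, and every knockout ratio lies above every wild type ratio.

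For ligands that a signalling and a decoy receptor share, the balance can be read within each library. The FPKM ratio of Cxcr4 to Ackr3, both receptors of Cxcl12, was 1.21, 0.926 and 0.926 in the wild type and 11.1, 15.3 and 16.3 in the knockout. On the log2 scale the mean ratio was 0.019 ± 0.226 in the wild type and 3.81 ± 0.30 in the knockout (SD, n = 3 each). Like the sums, the ratios are descriptions of receptors already known to differ and carry no test. The log2 FPKM ratio of Ccr2 to Ackr2, which both bind Ccl2, Ccl7 and Ccl12, was -1.10, 0.34 and -0.60 in the wild type and 9.46, 10.29 and 10.14 in the knockout. A pseudocount of 0.02 FPKM, near the worth of 1 Ackr2 count, was added for this ratio because Ackr2 was at 0 in the knockout. With 0.1 FPKM the difference between the group means was 8.02 and not 10.4, so its size rests on that choice.

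Promoter sequences are shown for Cxcr4 with Ackr3 and for Ccr1 with Ackr2, to set the DNA upstream of genes that rose beside that of genes that fell. Each line gives the 250 bases before the RefSeq transcription start (build GRCm38.p6), 5′ to 3′ on the gene's own strand. Capitals mark GAGGAA, the core bound by the myeloid factor PU.1, and TATAAA, the TATA box, on either strand. None of these 4 windows overlaps an annotated exon; Ccr1 is shown in place of Ccr2, whose window does.
Cxcr4, chr1:128592300-128592549, minus strand: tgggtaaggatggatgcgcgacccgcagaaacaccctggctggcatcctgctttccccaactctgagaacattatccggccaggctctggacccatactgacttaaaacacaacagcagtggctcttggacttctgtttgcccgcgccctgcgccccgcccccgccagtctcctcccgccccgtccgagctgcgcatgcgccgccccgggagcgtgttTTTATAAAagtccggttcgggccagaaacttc
Ackr3, chr1:90203730-90203979, plus strand: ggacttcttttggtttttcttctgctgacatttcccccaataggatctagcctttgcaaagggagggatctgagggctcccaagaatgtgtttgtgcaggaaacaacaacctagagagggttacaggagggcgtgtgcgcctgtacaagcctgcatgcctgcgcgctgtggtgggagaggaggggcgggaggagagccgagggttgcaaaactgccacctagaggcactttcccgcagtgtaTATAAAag
Ccr1, chr9:123968693-123968942, minus strand: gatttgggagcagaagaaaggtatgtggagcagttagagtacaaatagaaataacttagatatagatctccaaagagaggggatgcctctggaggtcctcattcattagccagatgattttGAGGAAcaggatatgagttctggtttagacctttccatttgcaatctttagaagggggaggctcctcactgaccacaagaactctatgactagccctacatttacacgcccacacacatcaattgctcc
Ackr2, chr9:121898105-121898354, plus strand: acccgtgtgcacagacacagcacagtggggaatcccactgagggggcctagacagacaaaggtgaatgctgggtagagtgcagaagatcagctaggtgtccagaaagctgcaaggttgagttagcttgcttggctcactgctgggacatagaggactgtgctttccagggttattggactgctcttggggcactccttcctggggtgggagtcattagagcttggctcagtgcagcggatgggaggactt

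All 9 receptors matched RefSeq promoters, in 11 entries. GAGGAA was present upstream of Ccr1 (129 bases before the start) and Ccr3 (181 bases before it), and not upstream of Ccr2, Cxcr4, Cx3cr1, Ccrl2 or the 3 decoys. It was present in 23.3% of the 32851 promoter windows of the same length. TATAAA was found upstream of Cxcr4 (32 and 30 bases before the start, overlapping on opposite strands), Ackr3 (8 bases before it) and Ackr4 (185 bases before it), against 12.4% of all windows. All 250 bases of the Ackr4 and Cx3cr1 windows, 233 of the Ccr2 window and up to 140 of the Ccrl2 windows lie in annotated exons. The AP-1 letters TGANTCA were found upstream of Ccr3 alone among the 9 (6.75% of all windows) and the STAT letters TTCNNNGAA upstream of none (7.02%). These are letter matches on both strands and do not show binding. GC content was 61.2% for Cxcr4, 54% for Ackr3, 43.6% for Ccr1 and 55.2% for Ackr2, and the median window had 52.4%.

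The receptors lie mostly on chromosome 9 (mm10, positions from the count table). Ccr1 (123962124 to 123968692, minus strand), Ccr3 (124021972 to 124031689, plus) and Ccr2 (124101950 to 124113557, plus) stand in a row. Cx3cr1 (119901616 to 120069879, minus), Ackr2 (121898355 to 121911074, plus), Ccrl2 (111054486 to 111057519, minus) and Ackr4 (104084157 to 104126933, minus) lie outside this row on the same chromosome. Cxcr4 (128588199 to 128592293, minus) and Ackr3 (90203980 to 90216751, plus) are on chromosome 1.

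In the stretch of 151 kb from Ccr1 to Ccr2, each of the 3 receptor genes with a count rose. Ccr1l1, which lies between Ccr1 and Ccr3, had no count in any library. The nearest 3 receptor genes on the other side of Ccr1, out to 290 kb from its start, were not called: Xcr1 had 27 counts over the wild type and 20 over the knockout libraries, Cxcr6 had 41 and 30, and Ccr9 had 29 and 25. Ccr1 and Ccr3 are close relatives in sequence, and reads could be split between them.

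**Figure D3:**
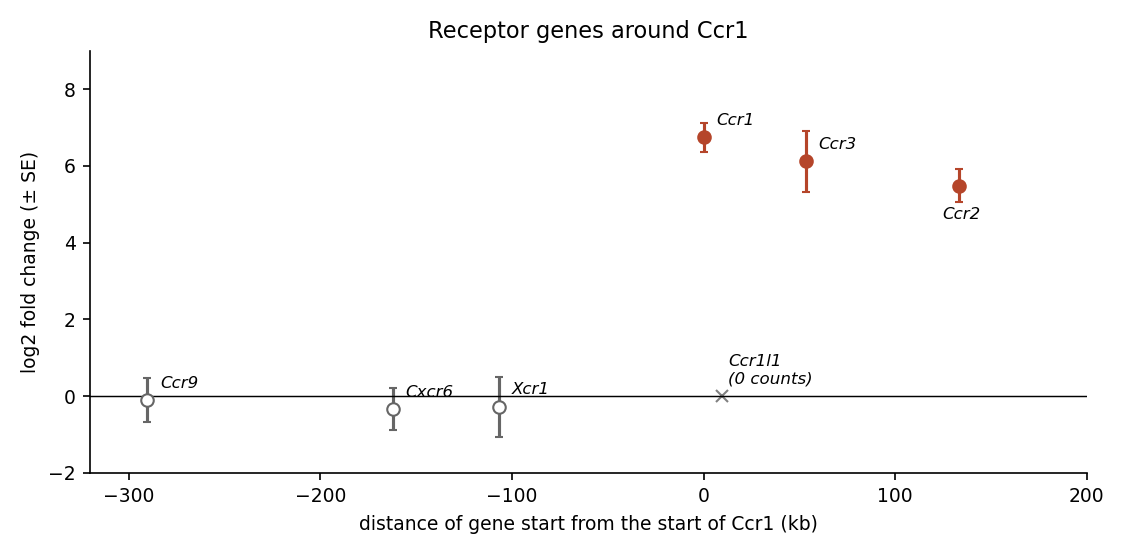
Log2 fold change ± SE of receptor genes against the distance of their start from that of Ccr1, in kb. Filled points passed the test and open points did not; the cross marks Ccr1l1 with 0 counts. Ccr1, Ccr3 and Ccr2 lie between 5.49 and 6.74, and Xcr1, Cxcr6 and Ccr9 lie near 0.

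The other chemokine receptors were mixed. Of 14 further receptor genes 11 were tested, with 5 higher, 2 lower and 4 not called. The 5 higher genes (Cxcr2, Cxcr1, Cxcr5, Ccr7 and Ackr1) passed the filter only through the knockout libraries and so had to differ, which makes their count and their adjusted p descriptions. Cxcr2, the main neutrophil receptor, went from 6 counts over the wild type group to 13012 over the knockout group (0.11 ± 0.11 to 270 ± 119 CPM, edgeR adjusted p = 2.98e-07). Its relative Cxcr1 had no wild type count and was at least 48.3-fold higher. Cxcr5, a B cell receptor, went from 2 to 301 counts (ratio 164, 45.02 to 1361), and Ccr7, the receptor that takes dendritic cells to lymph nodes, from 7 to 162. Ccr4 and Ccr10, receptors of skin-homing T cells, fell together with Cx3cr1. Ccr4 went from 17.2 ± 1.503 to 1.01 ± 0.50 CPM (log2 fold change -4.06 ± 0.36) and Ccr10 from 2.97 ± 2.28 to 0.278 ± 0.151 CPM (-3.37 ± 0.70). Ccr10 had 102, 21 and 39 wild type counts and 8, 3 and 3 knockout counts. It passed the filter only through the wild type libraries and so also had to differ. Ccr4 too passed only through them, with knockout replicate 2 just below the cutoff, and both lower calls are descriptions. Ccr8 was at 0.593 ± 0.289 and 0.988 ± 0.227 CPM and was not called, like Xcr1, Cxcr6 and Ccr9. The decoys of the Ackr family did not all fall. Ackr1, the Duffy antigen of venules and red cells, had no wild type count and 20, 14 and 15 knockout counts (at least 17.8-fold higher, edgeR adjusted p = 5.53e-04).

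**Figure D4:**
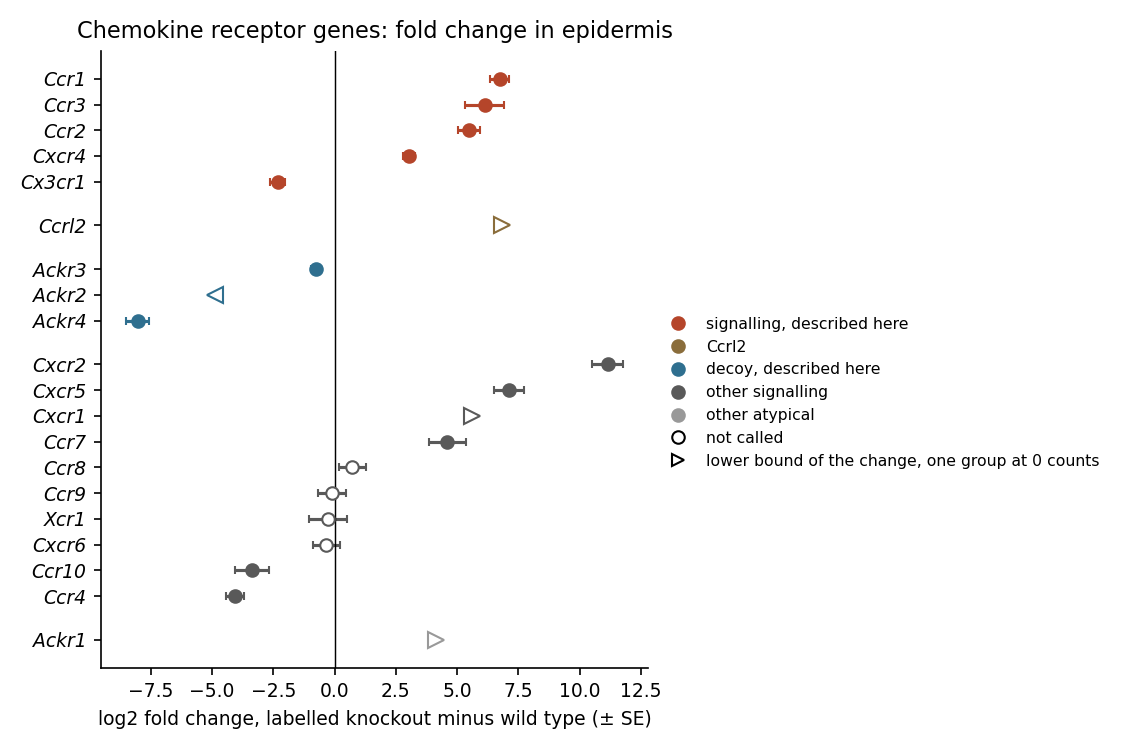
Log2 fold change ± SE of the tested chemokine receptor genes, labelled knockout minus wild type, by class. Filled points passed the test, open circles did not, and triangles give the lower bound of the change where a group had 0 counts. Ackr2, Ackr3 and Ackr4 lie below 0 and Ackr1 above it, and Cx3cr1, Ccr4 and Ccr10 lie below 0 among the signalling receptors.

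Ligands of the signalling CC receptors rose with them. All 5 listed Ccr1 ligands were higher, led by Ccl9 (0.97 ± 0.68 to 1967 ± 384 CPM), with Ccl3 at 0.192 ± 0.103 and 62.6 ± 13.2 CPM. Each of the 3 Ccr2 ligands was higher: Ccl2 went from 2 to 13719 counts (ratio 7477, 2070 to 61749), Ccl12 from 0.738 ± 0.208 to 204 ± 71.0 CPM, and Ccl7, from no wild type count, was at least 6841-fold higher. Of 6 Ccr3 ligands 3 were higher and Ccl28, a mucosal and skin chemokine, was lower (44 to 3 counts, 13.5-fold lower with an interval of 4.31 to 67.7). Among the Ccr3 ligands, Ccl24 had no wild type count and was at least 4546-fold higher, whereas the eotaxin Ccl11 had 0 and 19 counts and was not tested. Of the 10 ligands listed for Ackr2, 8 were tested and all 8 were higher, in the libraries where Ackr2 itself had 0 counts. Over all ligands 12 of 15 tested genes were higher and 2 lower, with a median log2 fold change of 7.92 against -0.03 over all genes tested, also with Ccl7 and Ccl24 at their bounds. Ligands such as Ccl2, Ccl7 and Ccl24 passed the filter only through the knockout libraries, and Ccl28 only through the wild type libraries. The counts of calls and the median are therefore descriptions.

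Single-ligand pairs differed in direction. Cx3cl1, the ligand of Cx3cr1, fell with its receptor, averaging 13.5 ± 3.13 CPM in the wild type and 1.15 ± 0.37 in the knockout (log2 fold change -3.55 ± 0.36, edgeR adjusted p = 1.35e-05). Cxcl12, shared by Cxcr4 and Ackr3, rose from 1.06 ± 0.23 to 15.6 ± 2.22 CPM (3.87 ± 0.31). Rarres2, which encodes chemerin, the ligand held by Ccrl2, went from 2 to 520 counts (ratio 283, 78.1 to 2346). Its signalling receptor gene Cmklr1 stood at 2.07 ± 0.82 in the wild type and rose to 73.7 ± 41.9 CPM (5.14 ± 0.46). Of the Ackr4 ligands, Ccl25 was the measured one, at 7.11 ± 2.55 and 8.96 ± 4.19 CPM, and was not called (edgeR adjusted p = 0.485). Ccl19 and the Ccl21 genes each appear in the table as near-identical copies with 0 to 2 counts in all. Reads shared between such copies can be split or dropped in counting, so these levels are uncertain.

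**Figure D5:**
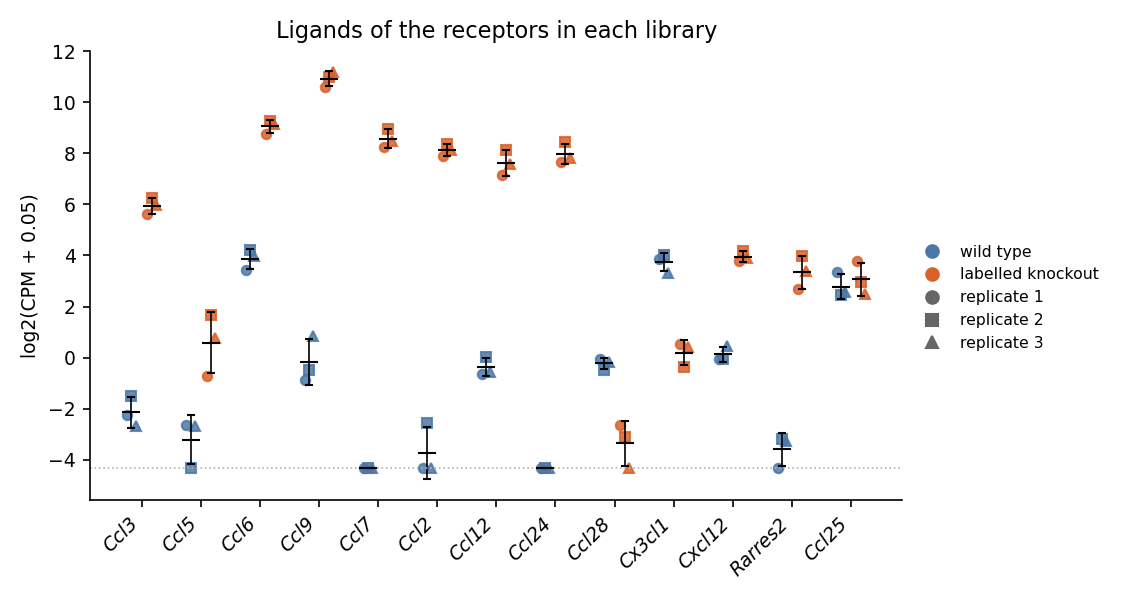
Level of receptor ligands as log2(CPM + 0.05) in each library, with mean ± SD of 3 libraries per group and the dotted line at 0 counts. Ccl7 and Ccl24 lie on that line in the wild type, Cx3cl1 and Ccl28 are lower in the knockout, and the groups overlap for Ccl25.

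The machinery behind the signalling receptors also rose. Of 21 signal transduction genes 17 were higher and 2 lower, with a median log2 fold change of 3.83. The highest mean CPM over all 6 libraries was that of the inhibitory G protein gene Gnai2, at 159 ± 16.2 and 881 ± 275 CPM (2.47 ± 0.31), while its relative Gnai1 fell from 104 ± 11.4 to 13.7 ± 7.44 CPM (-2.92 ± 0.39). Fgr, a Src-family kinase of myeloid cells, and Vav1, a Rac activator of blood cells, had the smallest adjusted p of this list, with log2 fold changes of 7.84 ± 0.40 and 5.37 ± 0.29. Fgr, with 16, 8 and 7 wild type counts, passed the filter only through the knockout libraries and so had to differ. Pik3r6 also passed only through those libraries, and the counts of calls in this list are descriptions. Across the whole filtered set, 28.7% of genes were called higher and 25.1% lower. The phosphoinositide 3-kinase gamma subunits Pik3cg (4.24 ± 0.36) and Pik3r5 (6.28 ± 0.37) rose too. Plcb3, a phospholipase that epithelia also use, fell (-1.27 ± 0.24).

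Genes that switch receptors off rose with most of the signalling receptors. Of 12 desensitisation genes 11 were higher and none was lower, with a median log2 fold change of 2.54. By comparison, the whole filtered set of 16471 genes had 28.7% called higher and 25.1% called lower. Rgs18, with 9 counts in wild type replicate 3, passed the filter only through the knockout libraries. The count of calls in this list is therefore a description. The receptor kinase gene Grk2 stood at 119 ± 13.01 and 323 ± 26.7 CPM (1.45 ± 0.22). Arrb2, the beta-arrestin gene prominent in leukocytes, rose from 26.0 ± 1.88 to 329 ± 41.6 CPM (3.66 ± 0.23) and Rgs14, which speeds G protein inactivation, from 1.90 ± 0.07 to 40.3 ± 7.65 CPM (4.40 ± 0.26). Grk6, with 64.7 ± 1.77 and 60.3 ± 5.81 CPM, was not called (edgeR adjusted p = 0.678).

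Markers of cells that carry these receptors moved in the same libraries, and their part in the receptor results was not tested. Markers with few wild type counts, such as Cd163, S100a8, Siglecf and Hdc, passed the filter only through the knockout libraries. The T cell gene Cd3e and the mast cell gene Mrgprb2, with few knockout counts, passed the filter only through the wild type libraries. All of these had to differ, so counts of calls in the marker lists are descriptions. All 5 general leukocyte markers were higher, with a sum of 95.9 to 109 CPM in the wild type and 1879 to 3164 CPM in the knockout. All 14 macrophage and monocyte markers were higher (190 to 213 against 10738 to 19864 CPM summed), led by the mannose receptor gene Mrc1. Knockout replicate 1 held the lowest sum of this list and also the lowest Ccr1, Ccr2, Cxcr4, Cx3cr1 and Ccrl2 of its group, whereas Ccr3, Ackr3 and Ackr4 were lowest in knockout replicate 3. Of 11 neutrophil markers 7 were tested and higher (2.12 to 3.00 against 3290 to 8097 CPM). All of these 7 except Csf3r passed the filter only through the knockout libraries. Of 5 dendritic cell markers 4 were higher (3.67 to 5.78 against 24.4 to 33.5 CPM), and of these 4 all except Itgax passed it only through the knockout libraries. Cx3cr1 fell in the libraries where macrophage markers rose.

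Other marker lists were less uniform. Beside Ccr3, the eosinophil granule genes Epx and Prg3 were at 0 in the knockout (3 and 1 wild type counts), Prg2 had 30 wild type and 5 knockout counts, and Ear1 had 6 and 3. The eosinophil ribonuclease genes Ear2 (1 wild type and 31 knockout counts) and Ear6 (1 and 33) had more in every knockout library, and Siglecf went from 1 to 827 counts, as the 1 tested and higher gene of 8. Of 10 mast cell genes 4 were higher and 2 lower (40.8 to 54.7 against 104 to 155 CPM). Hdc alone held most of the knockout sum, going from 0.199 ± 0.221 to 92.5 ± 24.3 CPM. Kit, which held most of the wild type sum, stood at 46.3 ± 6.95 and 28.0 ± 3.81 CPM. Beside Cx3cr1, Ccr4 and Ccr10, the T cell genes Cd3e, Cd3g and Lck were lower and Thy1 and Cd2 higher among 9. The sum of this list rose (39.9 to 57.0 against 117 to 155 CPM), but Thy1 alone held most of it in the knockout. Thy1 went from 17.3 ± 1.13 to 115 ± 19.3 CPM, and Cd2 from 0.481 ± 0.340 to 5.18 ± 0.24 CPM. Cd3d, Trdc and Trbc2 had lower knockout means and were not called. Without wild type replicate 1 neither Cd3e (edgeR adjusted p = 0.0774) nor Cd3g (0.0845) was called, and without knockout replicate 3 Cd3g was not (0.0610). The Langerhans cell marker Cd207 had no wild type count and 8 knockout counts, while the other 4 of the 5 genes of that list were higher (30.6 to 35.9 against 159 to 295 CPM). B and NK cell genes gave 1 higher of 7 (2.60 to 7.70 against 7.53 to 10.5 CPM).

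Markers of non-leukocytes moved as well. All 10 fibroblast genes were higher (292 to 310 against 3975 to 10326 CPM summed), as were 3 of 7 pericyte genes (20.8 to 43.1 against 127 to 232 CPM). Of 7 endothelial genes 4 were higher (4.83 to 7.64 against 196 to 366 CPM). Pecam1 alone held most of the knockout sum, going from 1.20 ± 0.40 to 251 ± 84.1 CPM. Egfl7 was at 3.21 ± 0.40 and 1.51 ± 0.75 CPM and was not called (edgeR adjusted p = 0.0605). Tek, with 24 wild type and 22 knockout counts, and Emcn, with 0 and 5, were not tested. Of 5 lymphatic genes 1 was higher (2.26 to 3.06 against 4.57 to 11.2 CPM), and Prox1, which defines lymphatic endothelium, was not called. Beside the 3 decoys, all 7 basal and all 6 suprabasal keratinocyte genes were lower, the suprabasal sum going from 67614 to 122079 CPM to 3102 to 7786 CPM. The knockout mean of these genes ran from 1.36% of the wild type mean (Krt15) to 48.5% (Itga6), beside 0.357% for Ackr4 and 58.8% for Ackr3, and the differences between genes were not tested. The calls of Krt14 and Itgb4 were lost under several alternatives, with all libraries kept (Krt14 with limma on log2 FPKM, adjusted p = 0.0699 and 0.0882; Itgb4 with RLE factors, 0.0504, library-size scaling, 0.0701, and a stricter filter, 0.0652) and with 1 left out (Krt14 without wild type replicate 3, edgeR adjusted p = 0.0621; Itgb4 without knockout replicate 3, 0.146). Schwann cell and melanocyte genes gave 2 higher and 2 lower of 6 (348 to 477 against 133 to 237 CPM).

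The genes whose levels followed a receptor most closely over the 6 libraries were found for the most abundant signalling and decoy gene. Likeness was the root mean square difference of log2(CPM + 0.5), each gene centred on its own mean, among 11420 other protein-coding genes averaging 5 CPM or more. Nearest to Ccr1 were Alox5ap, which serves leukotriene synthesis (0.089), Timp1, a metalloproteinase inhibitor (0.135), and the interferon-induced Ifitm1 (0.150). Nearest to Ackr3 were Klhl22 (0.054), Tysnd1 (0.055) and Pcgf3 (0.059). Because the groups differ strongly, likeness mostly records the size of the group difference.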

How the data were processed

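Total RNA of epidermis from newborn mice was sequenced in 6 libraries, 3 per genotype label. The submitters' processing notes name the aligner HISAT2 2.0.5, the read counter featureCounts 1.5.0-p3 and the build mm10; no source used here gives the annotation release or the strand setting. Raw counts per gene were deposited by the authors, with FPKM values, which equal count over gene length times 1 constant per library (0.854 to 1.12 times an FPKM scaled to the column total). Groups were taken from the genotype labels.

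Counts were tested with edgeR 4.0.16 (R 4.3.3): filterByExpr (minimum count 10, minimum total 15), TMM factors (0.882 to 1.13), a robust quasi-likelihood F test and Benjamini-Hochberg adjustment over all 16471 genes tested. The script was tested on simulated data. Ratios of deposited FPKM are described without the planned exact permutation test, since 3 against 3 libraries cannot go below p = 0.1 and the receptors were chosen with their changes known. Totals were 16315317 to 17816327 counts, where 1 count is 0.0531 to 0.0653 CPM. limma 3.58.1 and DESeq2 1.42.0 served as alternatives.

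The receptors and gene lists were chosen with earlier results of these data known. Named genes were every receptor of the set and, from each other list, the gene of highest mean CPM and up to 2 called genes of smallest adjusted p; other receptor genes beside Ccr1 and further list genes were added after their values were seen. Adrbk1 and Adrbk2, older names of Grk2 and Grk3, were unmatched. Libraries with the same replicate number deviated together from their group means (correlations 0.275, 0.415 and 0.203 over genes, other pairs -0.398 to 0.0899). The numbers were therefore taken to pair the libraries, although the labels do not say what they mark. This pairing entered only as the replicate block, an alternative, and the main fit used genotype alone. Replicates differed by more than counting noise. Protein sequences were not used here, and 2 genes of the lists are not reported here and were left out of the lists' counts and sums.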

Additional observations from a re-analysis of the deposited data

How the results depend on the processing

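Each of the 9 receptors kept its direction and its call under all 18 alternatives: other scaling factors, filters, DESeq2, limma on counts or FPKM, the replicate block, leaving out each library and leaving out both libraries numbered 1. That was 162 values, with Ackr3 nearest the threshold (log2 fold change -0.96 to -0.66, adjusted p up to 0.0429 without wild type replicate 3). The counts of 4 signalling receptors higher and 1 lower, and of 3 decoys lower, were the same under each of them. Over all genes tested, the count called was 4313 to 5017 higher and 3388 to 4458 lower when 1 library was left out. With the replicate number as a block it was 5089 higher and 4792 lower, and the block changed no call of a receptor described here. Leaving out 1 library moved the difference in log2 ratio of Cxcr4 to Ackr3 between 3.68 and 3.96, and that of Ccr2 to Ackr2 between 10.1 and 10.8; from CPM with a prior count of 0.5 the latter was 7.56. Upper-quartile scaling moved the median log2 fold change of all genes by -0.19 and library-size scaling by -0.15, less than the change of any of the 9 receptors. Of 2833 values of other listed genes, 28 lost their call, 15 gained one and 0 changed direction. Counts of 0 to 3 per group limit the size of change that can be given for Ccr3, Ccrl2 and Ackr2.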
